A study of Mus musculus with 13 samples.

Results

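The 300 bins described here are the stretches of the mouse autosomes with the highest level of 5-hydroxymethylcytosine (5hmC) in 13 mammary tumours. The deposited table gives the percentage of 5hmC in windows of 300 kb. It holds 9097 bins, of which 8219 lie on chromosomes 1 to 19 and 6947 were above 0 in all 13 tumours. These 6947 ranked bins were ordered by their unweighted mean over the 13 tumours and the first 300 were kept. Because the levels themselves chose the bins, their high level is a description and carries no test.

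All tumours were breast tumours of FVB mice in which middle T of polyomavirus (PyMT) was the oncogene, 1 tumour per mouse as the labels describe them, and they fell into 4 groups. In the first model, 4 tumours came from Phd2+/- mice and 3 from Phd2+/+ mice, all 16 weeks old and with no plasmid injected. In the second, 3 tumours came from mice given the PRRL2-sFlk1 plasmid by hydrodynamic injection and 3 from mice given the empty PRRL2 plasmid, all 12 weeks old and with no Phd2 allele named. Per the labels, loss of 1 Phd2 allele restores blood supply and oxygen in the tumour, whereas sFlk1 leaves it more hypoxic. The 2 models differ in age and in injection, so a comparison between them cannot be told apart from these. How PyMT was driven is not given in the sources used here, and whole tumours were assayed, so that the mark of tumour epithelium, vessels, stroma and leukocytes is mixed. A table of DNA marks cannot show which of these cells were present.

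TET enzymes make 5hmC by oxidising 5-methylcytosine, and they need oxygen, iron and alpha-ketoglutarate to do so. In many tissues the mark gathers in the bodies of transcribed genes and at enhancers, and it is low in silent heterochromatin and in most tumours. PHD2, encoded by Egln1, is an oxygen-dependent hydroxylase that marks hypoxia-inducible factor for degradation, and sFlk1 is a soluble VEGF receptor that traps its ligand. In tet-assisted bisulfite sequencing (TAB-seq) 5hmC is shielded while 5-methylcytosine is oxidised, so a base still read as cytosine stands for 5hmC. Sequencing was shallow and the table holds no read counts, so the depth behind each percentage is unknown and no counting interval can be given for it. A bin value belongs to the whole window and to every gene in it, and it is not a measure of expression.

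The sequences below show the kind of gene start the bins hold. They are RefSeq promoter windows on GRCm38.p6 of 250 bases before to 50 after the start, each read along its gene's strand, with every CG in capitals, since CG is the main site of cytosine modification in mammals. Pik3r1 encodes a regulatory subunit of phosphoinositide 3-kinase. Its window on the minus strand, chr13:101768168-101768467, lay in the bin of rank 15 and held 34 CG.
Pik3r1: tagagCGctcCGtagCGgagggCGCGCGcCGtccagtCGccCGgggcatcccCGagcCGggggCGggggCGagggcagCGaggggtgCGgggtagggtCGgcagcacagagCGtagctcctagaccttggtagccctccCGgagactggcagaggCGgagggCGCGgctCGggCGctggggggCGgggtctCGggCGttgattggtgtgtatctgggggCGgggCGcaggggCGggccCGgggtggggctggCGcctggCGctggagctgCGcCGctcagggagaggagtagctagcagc
Nf1 encodes neurofibromin, which switches off Ras. Its window on the plus strand, chr11:79339642-79339941, lay in the bin of rank 17 and held 30 CG.
Nf1: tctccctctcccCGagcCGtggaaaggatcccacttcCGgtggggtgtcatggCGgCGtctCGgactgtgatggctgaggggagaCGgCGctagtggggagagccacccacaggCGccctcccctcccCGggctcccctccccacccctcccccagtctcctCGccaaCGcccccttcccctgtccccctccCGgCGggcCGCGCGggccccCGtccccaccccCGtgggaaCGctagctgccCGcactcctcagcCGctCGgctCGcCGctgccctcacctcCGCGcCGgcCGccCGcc
Bcl2l14, a relative of the apoptosis regulator Bcl2, gave the contrast. Its window on the plus strand, chr6:134396079-134396378, lay in the bin of rank 7 and held 3 CG.
Bcl2l14: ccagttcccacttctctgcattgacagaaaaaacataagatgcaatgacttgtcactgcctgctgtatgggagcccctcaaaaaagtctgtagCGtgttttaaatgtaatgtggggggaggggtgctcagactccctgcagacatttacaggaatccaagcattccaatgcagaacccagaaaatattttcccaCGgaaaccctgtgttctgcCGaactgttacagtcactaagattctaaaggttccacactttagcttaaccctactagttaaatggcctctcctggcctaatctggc
The table of promoters held 435 windows in the 300 bins, with a median of 22 CG, against 15 over the 15220 windows in all ranked bins. At least 15 CG were found in 67.4% of the windows in the 300 bins and in 52.1% of all windows. No CG was found in 0.690% and 3.52%. The 777 windows in bins ranked 301 to 600 had a median of 21 CG and 68.6% with at least 15, so CG-rich starts were as frequent just below the 300 bins as within them.

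The 300 bins also held 46 of the 904 miRNA hairpins that lay in ranked bins, 5.09%. This was near the 4.32% of ranked bins that the 300 make up. Their mature forms are shown for 2 bins whose miRNAs are well known in mammary tumours, chosen after the values were seen, with the seed (bases 2 to 8) in capitals. The bin at chr6:30000001-30300000, of rank 173, holds Nrf1, a regulator of mitochondrial genes, and the miR-183 cluster. The bin at chr10:122700001-123000000, of rank 139, holds Ppm1h, Mon2 and let-7i.
mmu-miR-182-5p: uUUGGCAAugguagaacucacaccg
mmu-miR-96-5p: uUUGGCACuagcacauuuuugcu
mmu-miR-183-5p: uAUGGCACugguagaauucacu
mmu-let-7i-5p: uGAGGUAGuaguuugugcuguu
The 4 seeds differed from each other. The miR-183 bin had 8.18%, 10.0%, 7.34% and 8.15% 5hmC in Phd2+/- tumours, against 7.63%, 5.13% and 4.60% in Phd2+/+ tumours. It had 4.98%, 4.81% and 5.43% in sFlk1 tumours, against 6.09%, 5.54% and 5.54% in empty vector tumours. Groups thus overlapped in the Phd2 model through 1 Phd2+/+ tumour and did not overlap in the sFlk1 model. The let-7i bin averaged 8.26 ± 1.06% in Phd2+/- and 5.12 ± 0.487% in Phd2+/+ tumours (SD, n = 4 and 3), and 6.09 ± 1.24% in sFlk1 and 6.24 ± 0.863% in empty vector tumours (SD, n = 3 each).

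The means of the 300 bins ran between 6.01% and 11.7% with a median of 6.52%, against a median of 2.89% over all ranked bins. Most lay near the lower bound: 233 were between 6% and 7%, 53 between 7% and 8%, and 14 above 8%. The last 3 inside were the bins of Rhbdd1, Irs1 and Col4a4 (6.015%), of Pde9a, Slc37a1 and Ubash3a (6.011%) and of Zzef1, Ankfy1 and Ube2g1 (6.010%). The first 3 outside were a bin with no coding gene at chr10:96300001-96600000 (6.007%), that of Ppp1r1c and Itprid2 (5.997%) and that of Vti1a and Tcf7l2 (5.996%). The bound thus falls in a continuous range of levels.

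The bin with the highest level lay on chromosome 4 (82200001 to 82500000, GRCm38) within and around Nfib, a transcription factor of the nuclear factor I (NFI) family. It had 13.7%, 13.1%, 11.8% and 12.2% 5hmC in Phd2+/- tumours, against 9.38%, 9.26% and 11.1% in Phd2+/+ tumours. It had 9.30%, 13.4% and 9.92% in sFlk1 tumours, against 16.3%, 10.3% and 13.1% in empty vector tumours. All Phd2+/- tumours were above all Phd2+/+ tumours, while the sFlk1 and empty vector groups overlapped.

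Auts2, a nuclear protein known for its part in a transcription-activating form of Polycomb repressive complex, held the second and the tenth bin. The bin of rank 2 (chromosome 5, 132300001 to 132600000) had 11.2%, 14%, 10.9% and 11.8% in Phd2+/- tumours, against 9.03%, 9.01% and 8.01% in Phd2+/+ tumours. It had 9.08%, 6.59% and 13.3% in sFlk1 tumours, against 10.2%, 11.6% and 8.57% in empty vector tumours. The sFlk1 tumours were spread more widely there than any other group. Its neighbour of rank 10 had 8.35%, 12.3%, 8.95% and 9.76% in Phd2+/- tumours, against 6.23%, 6.40% and 6.62% in Phd2+/+ tumours. That neighbour had 7.09%, 6.22% and 6.13% in sFlk1 tumours, against 9.34%, 11.2% and 9.16% in empty vector tumours, with no overlap of groups in either model.

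Trps1, a GATA-type zinc finger repressor of mammary luminal cells, held the bin of rank 3 (chromosome 15, 50700001 to 51000000). It had 12.3%, 11.4%, 10.2% and 11.8% in Phd2+/- tumours, against 9.04%, 7.62% and 10.3% in Phd2+/+ tumours. It had 5.83%, 10.2% and 8.46% in sFlk1 tumours, against 11.8%, 9.62% and 9.32% in empty vector tumours, and both pairs of groups overlapped. Snd1, an RNA-binding nuclease-domain protein of the splicing and RNA silencing machinery, held the bin of rank 4 on chromosome 6. Its means were 10.5 ± 1.30% in Phd2+/- and 8.74 ± 0.0940% in Phd2+/+ tumours (SD, n = 4 and 3), and 8.60 ± 1.36% in sFlk1 and 8.24 ± 0.817% in empty vector tumours (SD, n = 3 each).

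Among the next bins, that of rank 5 had a mean of 9.02% over the 13 tumours. It is named here by Edem3, which trims mannose from misfolded glycoproteins, since gene models such as 1700025G04Rik were passed over in naming. Its longest gene, 1700025G04Rik, spans 206598 bases and lies wholly in it, and Edem3 covers a smaller part. Gnaq with Gna14, alpha subunits of G proteins, had 8.84%, and Etv6, an ETS family repressor, with Bcl2l14 had 8.80%. Chrm3, a muscarinic acetylcholine receptor, had 8.68%. Nfia, the relative of Nfib, had 8.50%, Rere, an atrophin co-repressor, 8.21%, and Tcf12, a helix-loop-helix factor, with the junction protein gene Cgnl1 8.15%. Rad51b, a recombination repair gene, had 8.09%, and Tcf7l2, which carries Wnt signals to DNA, 8.07%. The rest of the top 20 were Pik3r1 (7.96%), Ncald with the epithelial factor Grhl2 (7.93%), Nf1 (7.93%), Atxn1 (7.91%), the focal adhesion gene Tns3 (7.82%) and the RNA-binding gene Rbm47 with Nsun7 (7.78%).

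**Figure D1:**
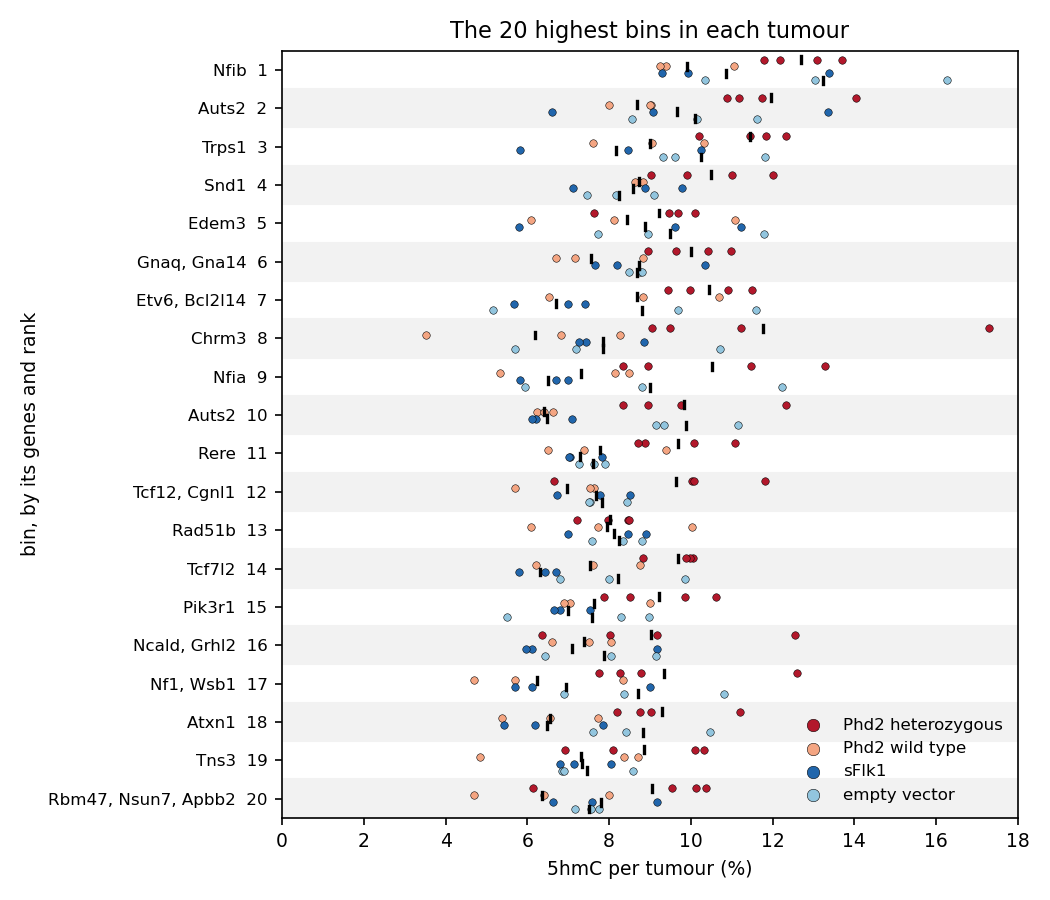
5hmC percentage in each of the 13 tumours (x axis) for the 20 bins with the highest mean (y axis, by genes and rank), with points coloured by group and black ticks at the group means. The Nfib bin lies to the right of the others with a mean of 11.7%, and the other 19 have means between 7.78% and 10.2%.

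The order of the bins varied between tumours. In each tumour taken alone, 132 (44%, sFlk1 tumour 3) to 190 (63.3%, empty vector tumour 3) of the 300 bins were among that tumour's own highest 300. All 300 were above the median of the tumour's ranked bins in 12 tumours, and 299 were in empty vector tumour 2. In 10 bins the level was among the highest 300 of every tumour. They were those of Nfib, Auts2 (rank 2), Trps1, Snd1, 1700025G04Rik with Edem3, Gnaq, Rere, Rad51b and Atxn1, and that of Nsmce2 and Trib1 (rank 22). At the other end, 2 bins reached it in 2 tumours only. Choosing 300 bins within 1 model alone and comparing gave 217 bins in common, 72.3% of either set.

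The content of the 300 bins, which the choice had not used, continued a gradient that ran through the ranks. Protein-coding genes covered 70.9% of the bases in the median bin of the 300, against 62.4% in ranks 301 to 600 and 45.9% over all ranked bins. A gene longer than 100 kb overlapped 250 of the 300 (83.3%), against 65.3% in ranks 301 to 600 and 49.2% over all ranked bins. The number of genes did not follow the ranks in 1 direction. It averaged 2.50 per bin in the 300, against 3.75 in ranks 301 to 600, 2.15 in ranks 3501 to 6947 and 3.20 over all ranked bins, and the median was 2 both in the 300 and over all ranked bins. At least 10 genes were held by 3 of the 300 (1%), against 6.33% in ranks 301 to 600 and 6.39% of all ranked bins. In 29 (9.67%) the whole window lay within 1 gene, against 3% in ranks 301 to 600 and 5.59% of all ranked bins.

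The genes of these bins were long. Of the 19099 protein-coding genes that had most of their body in a ranked bin, 616 (3.23%) had it in one of the 300. Their median length was 60.2 kb, against 18.7 kb over all 19099, and 35.2% of them exceeded 100 kb, against 11.5%. The share of genes that lay in the 300 bins was 1.47% for genes under 20 kb, 2.90% at 20 to 50 kb, 5.07% at 50 to 100 kb, 8.73% at 100 to 200 kb and 13% at 200 to 400 kb. Above 400 kb it was 8.83%, and the median level of the bins holding such genes was 2.22%, below that of every shorter class. The longest genes thus included many at low levels as well as Auts2, of 1106 kb, which had 3 of its 4 ranked bins among the 300.

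**Figure D2:**
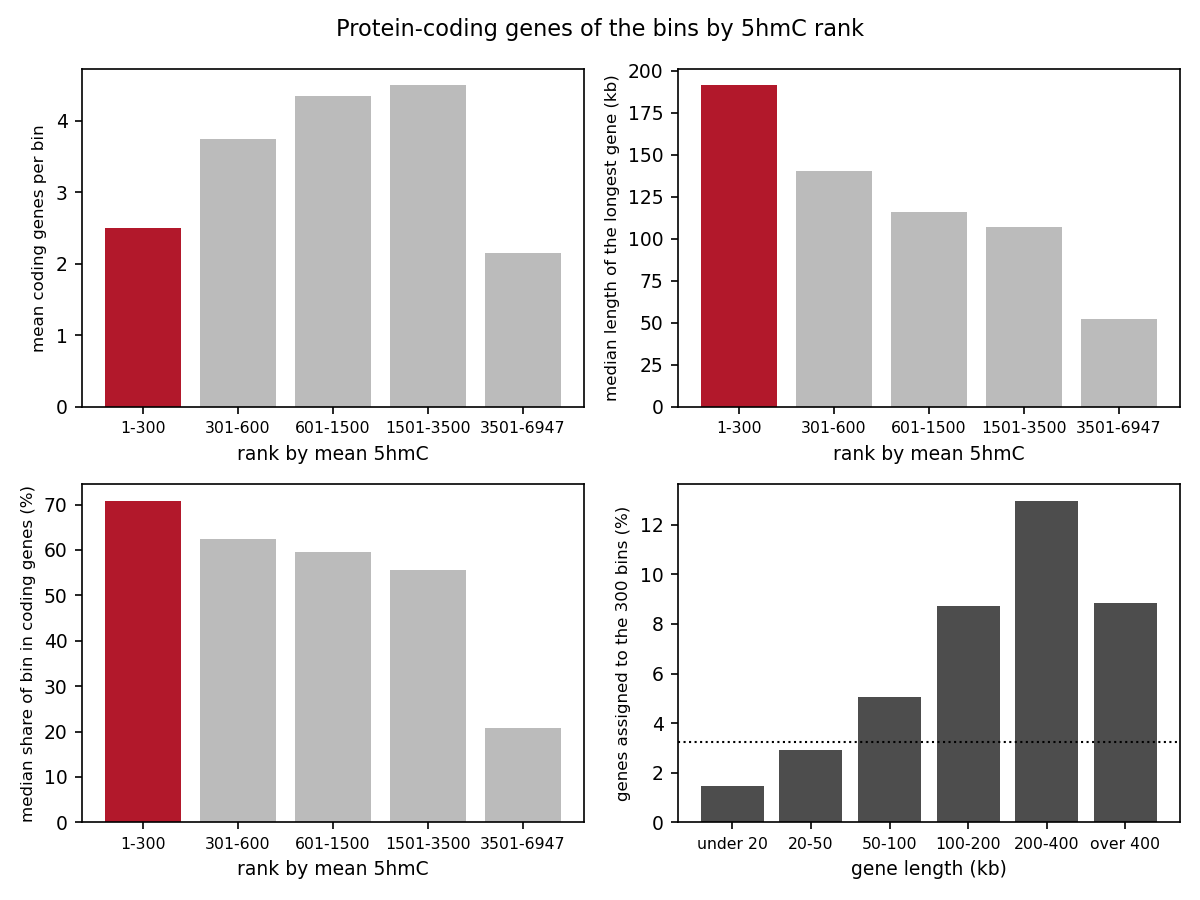
Gene content of bins grouped by 5hmC rank (x axes), with the 300 bins first in red: mean number of protein-coding genes per bin, median length of the longest gene in kb and median gene-covered share of the bin in percent; the last panel gives the percentage of genes of each length class (kb) assigned to the 300 bins, with a dotted line at 3.23% for all genes. The longest gene (191 kb) and the coverage (70.9%) are highest in the 300 bins, while gene number is higher in ranks 301 to 3500.

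Several genes held more than 1 of the 300 bins, counting a bin where at least 30 kb of the gene overlapped it. The 2 ranked bins of Cgnl1, the adaptor Nck2, the co-activator Zmiz1, Ldlrad4, the chromatin reader Baz2b, Fndc3b, the Notch co-activator Maml2, Tanc1, Mllt3, the stress kinase Map3k5, Farp1 and the YAP partner Tead1 were both among them. Rad51b, Zbtb20, the adhesion protein Lpp and the polarity gene Pard3 had 2 of 3, and Celf2, Sox5 and Etl4 2 of 4. For a long gene, then, high 5hmC could cover part of the body or all of it at this resolution.

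The gene lists drawn up for a mammary tumour took unequal shares. Of 17 ranked genes of NFI, ETS, SMAD and TEAD factors and their co-factors, which carry growth factor and Hippo signals to DNA, 7 (41.2%) had most of their body in the 300 bins, against 3.23% of all genes. These were Nfib, Nfia, the TGF-beta mediators Smad3 and Smad7, the SMAD co-repressor Ski, Tead1 and its co-activator Wwtr1. Of nuclear receptors and co-regulators 4 of 15 (26.7%) did, namely the glucocorticoid receptor Nr3c1, the thyroid hormone receptor Thrb, the co-activator Ncoa3 and the co-repressor Nrip1. Both lists held long genes, with a median length of 73.7 kb and 109 kb. These and the other lists were chosen with earlier results of these data known, including the levels of some of the genes. The counts of the lists, here and below, are thus not independent evidence.

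Other lists gave smaller counts, again to be set against 3.23% of all genes. Of the proteins that middle T signals through, 3 of 14 (21.4%) lay in the 300 bins: Pik3r1, the Src family kinase Yes1 and the adaptor Gab1. Of luminal epithelial genes 3 of 16 (18.8%) did, the ETS factors Elf5 and Ehf, in 1 bin, and Stat5a, which carries the prolactin signal. The luminal list was mixed, with a median bin mean of 4.75%. Krt19 (2.79%), Esr1 (2.43%), Foxa1 (2.33%), Tfap2b (2.33%) and Pgr (1.21%) lay below the 2.89% median of all ranked bins, and the rest above it. Chromatin regulators gave 3 of 17 (17.6%: Rere, Zmiz1 and the remodeller Chd7), tumour suppressors 3 of 18 (16.7%: Nf1, the E2F inhibitor Rb1 and the ubiquitin ligase subunit Fbxw7) and cytosine modification genes 2 of 12 (16.7%: the DNA methyltransferase Dnmt3a and Gadd45a). Genes of these lists were long too. The median was 56.2 kb for middle T signalling, 30.4 kb for luminal, 88.5 kb for chromatin, 56.7 kb for tumour suppressor and 32.2 kb for cytosine modification genes, against 18.7 kb for all genes.

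No gene of 7 lists had most of its body in the 300 bins, against 3.23% of all genes, a share that leaves less than 1 gene for a list of this size. These were the basal (10 ranked genes), endothelial (12), fibroblast (10), leukocyte (10), hypoxia-inducible (16), Polycomb target (14) and neuronal (10) lists. The hypoxia-inducible and basal lists had median bin means of 4.22% and 4.08%, above the 3.52% of all genes. The highest of the hypoxia-inducible genes was Ndrg1 at rank 403 with a mean of 5.70%, and the highest endothelial gene was Pecam1 at rank 441 with 5.63%. Polycomb targets were lower, with a best rank of 2862 for Olig2 (3.32%). The neuronal list had a median length of 786 kb and a median bin mean of 1.10%, both over all its 14 genes, of which 10 lay in ranked bins. Trp63, a basal factor, and Runx1, from the leukocyte list, each overlapped one of the 300 bins while having most of their body outside.

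In 13 of the 300 bins (4.33%) there was no protein-coding gene. The share was 5% in ranks 301 to 600, 4.22% in ranks 601 to 1500, 31.1% in ranks 3501 to 6947 and 18.4% over all ranked bins, so the 300 were like the classes just below them. All 13 held a long non-coding RNA of the annotation. For 2 of them the nearest coding gene was Myc, a driver of growth: that of rank 77 (chr15:62100001-62400000), which overlaps Pvt1 and starts 110 kb from Myc, and that of rank 92, 185 kb from Myc on the other side. A bin of rank 48 lay 23.2 kb from Cited2, a co-regulator that competes with hypoxia-inducible factor for its co-activator. The bin of rank 54 lay 6.02 kb from Irf2bp2, that of rank 244 11.1 kb from the repressor Bcl6, and that of rank 247 15.5 kb from the inhibin subunit gene Inhbb. That of rank 150 adjoined the Trps1 bin of rank 3, and that of rank 27 adjoined rank 150 in turn, with Eif3h as its nearest coding gene at 187 kb. These bins were singled out after their values were seen.

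Along the chromosomes the 300 bins were mostly solitary, with a smaller part in short runs. They formed 255 separate runs, of which 221 were single bins, 24 had 2 bins, 9 had 3 and 1 had 4. A neighbour also among the 300 was found for 79 of them (26.3%, exact binomial interval 21.4% to 31.7%, which counts bins as if independent), against 8.23% of all ranked bins. Both neighbours were ranked bins for 295 of the 300, and 252 of these (84% of the 300) were higher than both. Because bins were picked for height, their neighbours are lower by construction to some degree.

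The neighbours of the 300 bins nonetheless had more 5hmC than an average bin. At 0.3 Mb the mean was 4.42%, at 0.6 Mb 3.74%, at 0.9 Mb 3.42%, at 1.5 Mb 3.18% and at 3 Mb 3.00%, the last being the mean of all ranked bins. Leaving out neighbours that were themselves among the 300, the mean at 0.3 Mb was 3.99%. The share of positions held by another of the 300 was 15.1% at 0.3 Mb, 7.90% at 0.6 Mb and 4.92% at 0.9 Mb, against 4.32% over all ranked bins. Adjacent bins can share a gene, as in Auts2, and the part of this in the raised level of neighbours was not tested.

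**Figure D3:**
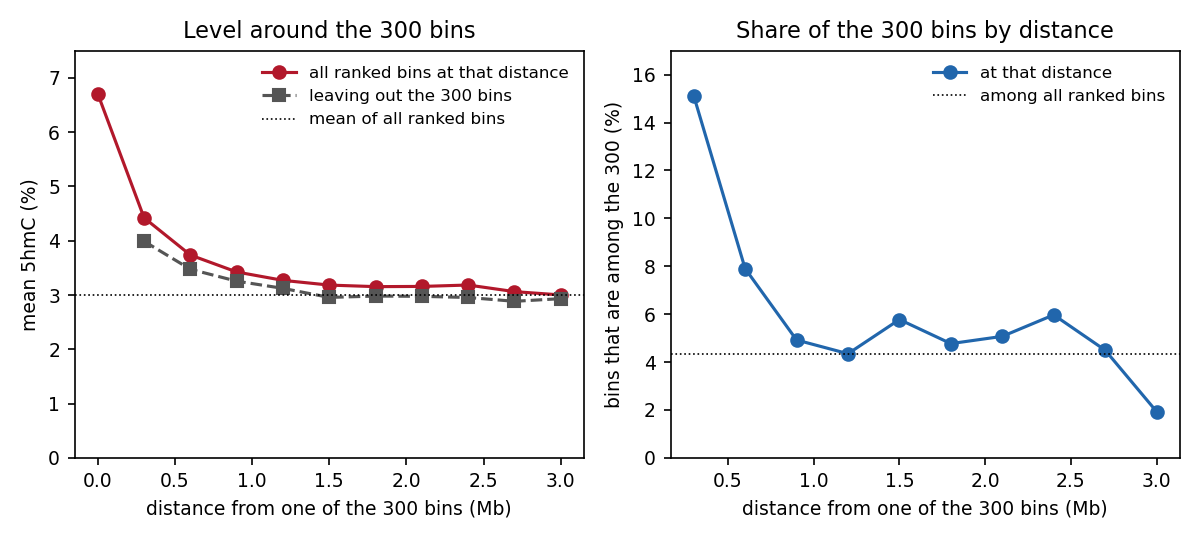
Mean 5hmC percentage (y axis, left panel) and percentage of bins that are among the 300 (y axis, right panel) by distance in Mb from one of the 300 bins (x axes), with squares for bins outside the 300 and dotted lines for all ranked bins. The level reaches the mean of all ranked bins, 3.00%, at 3 Mb, and the share of other high bins lies between 1.93% and 5.97% beyond 0.6 Mb, around 4.32% for all ranked bins.

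The run of 4 bins lay on chromosome 9 (13200001 to 14400000) with a mean of 6.54%. It held Maml2, the phosphoinositide phosphatase Mtmr2, Fam76b, the centrosome gene Cep57, the stress-response gene Sesn3 and Endod1. The 9 runs of 3 had means between 6.37% and 8.45%. The highest was Auts2 on chromosome 5 (131700001 to 132600000), then Trps1 with the 2 bins beside it on chromosome 15 (50700001 to 51600000, 7.99%) and Rad51b with Actn1, Dcaf5 and Zfp36l1 on chromosome 12 (79500001 to 80400000, 7.07%). A run on chromosome 2 (102900001 to 103800000, 6.57%) placed the cell surface glycoprotein gene Cd44, the luminal factors Ehf and Elf5 and Abtb2 side by side.

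Chromosomes differed in their share. Of the ranked bins, 6.65% were among the 300 on chromosome 15 (20 of 301), 6.15% on chromosome 13 (22 of 358) and 5.95% on chromosome 18 (16 of 269). Chromosome 17 had the lowest share, 1.84% (5 of 272), and chromosome 1 had 2.72%. Chromosome 11 had the highest mean over its ranked bins, 3.38%, with 4.17% of them among the 300. The last 3 Mb of the chromosomes held 5 of the 300 bins (1.67%), against 2.36% of all ranked bins.

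In the Phd2 model the 300 bins had more 5hmC in Phd2+/- than in Phd2+/+ tumours. Averaged over the 300 bins, the Phd2+/- tumours had 7.80%, 8.77%, 7.15% and 7.30%, against 6.29%, 5.31% and 6.33% in Phd2+/+ tumours. The groups did not overlap. The means were 7.75 ± 0.734% in Phd2+/- and 5.98 ± 0.577% in Phd2+/+ tumours (SD, n = 4 and 3), a difference of 1.78 percentage points (SE 0.495), or 29.7% of the Phd2+/+ mean. No p is given for this average, since the bins were chosen with results known. In whole tumours a shift between cell types and a shift of the mark within cells cannot be told apart.

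The sFlk1 model went the other way. Averaged over the 300 bins, the sFlk1 tumours had 5.58%, 5.94% and 6.25%, against 7.32%, 6.55% and 6.57% in empty vector tumours, again without overlap. The means were 5.92 ± 0.339% in sFlk1 and 6.81 ± 0.436% in empty vector tumours (SD, n = 3 each), a difference of -0.887 points (SE 0.319), or -13.0%. Each bin shares its tumours with the other 299, so these averages rest on 13 tumours, not on 300 bins. With the bins chosen only in the other model, the differences were 1.74 points (30.0%) in the Phd2 model and -0.902 points (-13.5%) in the sFlk1 model.

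**Figure D4:**
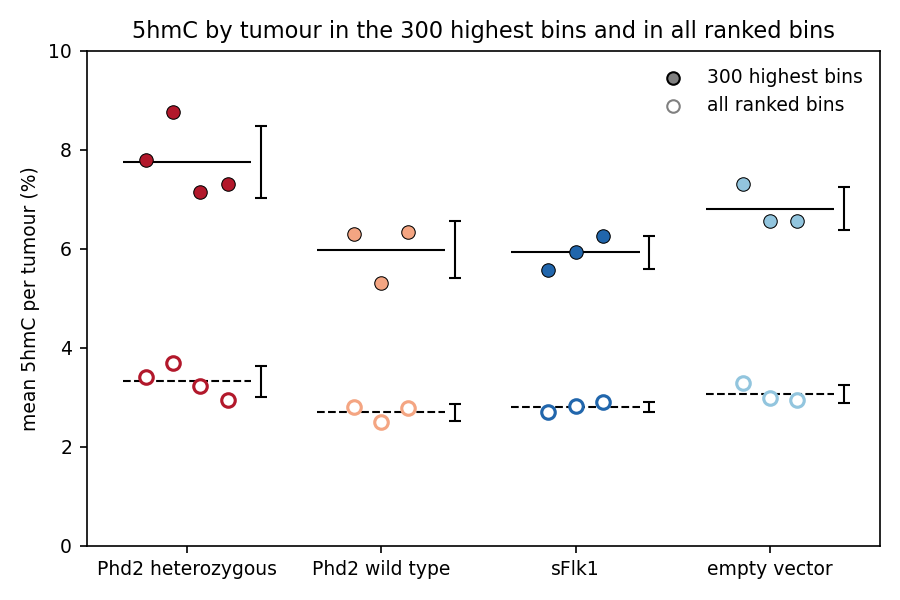
Mean 5hmC percentage per tumour (y axis) over the 300 bins and over all ranked bins for the 4 groups (x axis), with filled points for the 300 bins and open points for all ranked bins, 1 per tumour, lines at the group means and bars for the SD. Over the 300 bins the Phd2+/- tumours lie between 7.15% and 8.77%, above the Phd2+/+ tumours at 5.31% to 6.33%, and the sFlk1 tumours lie between 5.58% and 6.25%, below the empty vector tumours at 6.55% to 7.32%.

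The same directions were present over all ranked bins, with smaller differences. There the means were 3.32% in Phd2+/- and 2.69% in Phd2+/+ tumours, a difference of 0.631 points (SE 0.184) or 23.4%, and 2.81% in sFlk1 and 3.07% in empty vector tumours, a difference of -0.266 points (SE 0.119) or -8.65%. The relative difference fell off with rank. In the Phd2 model it was 29.7% in the 300 bins, 28.7% in ranks 301 to 600, 26.5% in ranks 601 to 1500, 24.6% in ranks 1501 to 3500 and 15.8% below. In the sFlk1 model it was -13.0%, -13.5%, -9.54%, -9.17% and -4.47% in the same classes. The SE of each class was between 3.58% and 8.29%, and the classes share the same tumours. The ratio of the 300 bins to all ranked bins in the same tumour was 2.34 ± 0.111 in Phd2+/- and 2.22 ± 0.0809 in Phd2+/+ tumours (SD, n = 4 and 3), with overlap. It was 2.11 ± 0.0475 in sFlk1 and 2.22 ± 0.0200 in empty vector tumours (SD, n = 3 each), without overlap. The relative differences of the 300 bins were thus above those of all ranked bins, which include the 300, and close to those of the bins ranked 301 to 600.

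**Figure D5:**
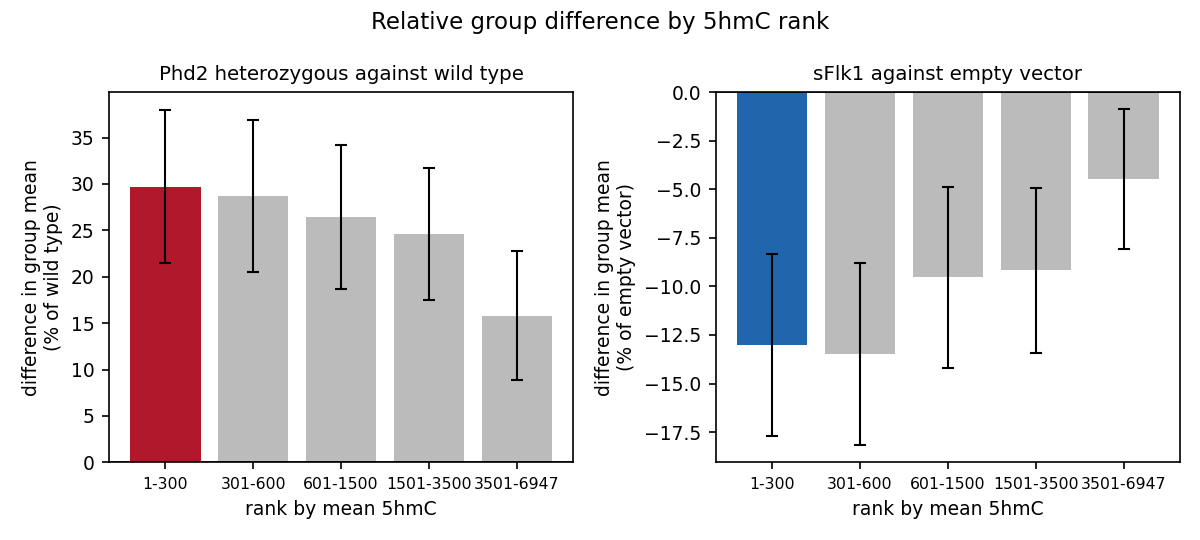
Difference between groups in percent of the Phd2+/+ mean (left) or the empty vector mean (right), by 5hmC rank class (x axes), with the 300 bins first and error bars for the SE over tumours. The 300 bins stand at 29.7% and -13.0%, close to ranks 301 to 600 at 28.7% and -13.5%, and the lowest class at 15.8% and -4.47%.

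Bin by bin, the Phd2 difference passed the threshold in none of the 300 bins (limma on percentages with Benjamini-Hochberg adjustment at 0.05 over 6947 bins, which called 0% of all). The lowest adjusted p in these bins was 0.219. At an unadjusted p under 0.05, 119 of the 300 (39.7%) had more 5hmC in Phd2+/- tumours and 0 had less, against 13.2% and 0.288% of all ranked bins. In ranks 301 to 600 the share at that level was 36.7%. The Phd2+/- mean was above the Phd2+/+ mean in 296 of 300 (98.7%), against 97.3% in ranks 301 to 600 and 80.3% of all. Every Phd2+/- tumour was above every Phd2+/+ tumour in 97 (32.3%), against 12.9% of all. The reverse non-overlap was found in 1 bin, against 0.705%. Of the 300, 137 had their highest value in Phd2+/- tumour 2 and 92 had their lowest in Phd2+/+ tumour 2. These counts were not made over all ranked bins. There too, Phd2+/- tumour 2 had the highest mean of the 13 tumours (3.70%) and Phd2+/+ tumour 2 the lowest (2.50%). Without Phd2+/+ tumour 2 the unadjusted count was 48, and without Phd2+/- tumour 2 it was 70. The share over all ranked bins was not counted in these fits, so whether it fell alike cannot be said.

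Among the bins with the smallest p in this comparison was that of Chrm3, of rank 8. It had 9.48%, 17.3%, 9.04% and 11.2% in Phd2+/- tumours, against 6.82%, 3.51% and 8.27% in Phd2+/+ tumours. Its difference of 5.57 points (SE 1.52) had an adjusted p of 0.219 in limma. The groups did not overlap. The most extreme value of each came from the tumours numbered 2, which also had the highest and lowest mean over all ranked bins. Prickle2, a planar cell polarity gene, had 10.7%, 9.78%, 8.93% and 6.70% in Phd2+/- tumours, against 5.93%, 3.83% and 5.74% in Phd2+/+ tumours. The bin of Pde4b, which breaks down cyclic AMP, had 9.95%, 9.38%, 6.98% and 7.47% in Phd2+/- tumours, against 5.56%, 4.41% and 4.94% in Phd2+/+ tumours. These bins did not overlap either.

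The bin of Garem1, an adaptor in growth factor signalling, with Mep1b and Rnf138 had a mean of 8.08 ± 1.49% in Phd2+/- and 4.36 ± 0.544% in Phd2+/+ tumours (SD, n = 4 and 3). The bin of Ext1, a heparan sulfate polymerase, had 8.04 ± 1.51% in Phd2+/- and 4.73 ± 1.08% in Phd2+/+ tumours (SD, n = 4 and 3). Each had an adjusted p of 0.219 in limma, as did Prickle2 and Pde4b. The Phd2+/- mean was the lower one in 4 of the 300 bins, against 19.7% of all ranked bins: Pias1 with Itga11 and Fem1b (difference -0.822 points), Ghr with Ccdc152 (-0.708), Itga8 (-0.660) and Rai1 with Tom1l2 and Pemt (-0.269). The growth hormone receptor bin had 6.78%, 6.05%, 6.75% and 6.84% in Phd2+/- tumours, against 7.79%, 6.97% and 7.19% in Phd2+/+ tumours. It was the single bin in which every Phd2+/- tumour was below every Phd2+/+ tumour.

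In the sFlk1 comparison too, none of the 300 bins passed limma's adjusted threshold, against 0.0144% of all ranked bins. Their lowest adjusted p was 0.441. At an unadjusted p under 0.05, 34 (11.3%) had less 5hmC in sFlk1 tumours and 2 had more, against 5.64% and 1.74% of all ranked bins. Over both directions the share was 12% in the 300 bins, 12.7% in ranks 301 to 600 and 7.38% of all ranked bins. The sFlk1 mean was the lower one in 241 (80.3%), against 78.7% in ranks 301 to 600 and 62% of all. Every sFlk1 tumour was below every empty vector tumour in 55 (18.3%), against 9.26%, and above in 2, against 2.88%. Without empty vector tumour 1 the unadjusted count over both directions was 23, against 36 with all tumours. The share over all ranked bins was not counted in that fit.

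The smallest p belonged to the bin of Sgk1, a serum- and glucocorticoid-induced kinase, of rank 250. It had 3.84%, 4.03% and 3.98% in sFlk1 tumours, against 6.81%, 8.79% and 6.47% in empty vector tumours. The difference was -3.41 points (SE 0.996) with an adjusted p of 0.441 in limma. The sFlk1 tumours were low and close together, and the groups did not overlap. In the Phd2 model the same bin had 6.75 ± 1.58% in Phd2+/- and 6.37 ± 1.24% in Phd2+/+ tumours (SD, n = 4 and 3).

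The Pvt1 bin of rank 77, without a coding gene, had 5.27%, 4.61% and 3.51% in sFlk1 tumours, against 9.68%, 7.75% and 6.31% in empty vector tumours. In the Phd2 model it had 8.12%, 7.82%, 9.18% and 8.74% in Phd2+/- tumours, against 7.30%, 5.97% and 5.69% in Phd2+/+ tumours. Neither pair overlapped. Arfip1, with Fhdc1 and Trim2 in 1 bin, had 4.32%, 4.79% and 5.05% in sFlk1 tumours, against 9.14%, 9.23% and 6.64% in empty vector tumours. The actin nucleator gene Fmn1 had 3.91%, 5.49% and 3.98% in sFlk1 tumours, against 9.84%, 6.36% and 6.91% in empty vector tumours. Both of these bins were free of overlap.

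The fifth bin on the lower side held Strbp, Rabgap1 and Crb2, with a difference of -3.31 points. On the other side, the bins with a higher sFlk1 mean and the smallest p were those of Chsy1 with Pcsk6 and Lrrk1 (2.26 points), Pdhx with Apip and Cd44 (2.13), Sox5 (1.89), Zmiz1 at rank 134 (1.86) and Pard3 at rank 216 (1.64). Chsy1, a chondroitin synthase gene, had 6.85%, 8.64% and 6.67% in sFlk1 tumours, against 5.62%, 4.49% and 5.27% in empty vector tumours, without overlap. None of these passed the adjusted threshold.

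Both directions at once, a higher mean in Phd2+/- than in Phd2+/+ tumours and a lower one in sFlk1 than in empty vector tumours, were found in 237 of the 300 bins (79%), against 51.4% of all ranked bins. Phd2+/- was the highest of the 4 group means in 252 of the 300, empty vector in 38, sFlk1 in 7 and Phd2+/+ in 3. This order was not counted over all ranked bins, so it cannot be read as particular to the 300. The 2 bins of Rad51b differed from each other, a pair singled out after its values were seen. The bin of rank 13 had 7.98%, 8.46%, 8.48% and 7.21% in Phd2+/- tumours, against 7.73%, 6.10% and 10.0% in Phd2+/+ tumours. It had 7.01%, 8.90% and 8.45% in sFlk1 tumours, against 8.35%, 8.82% and 7.59% in empty vector tumours. Its differences were 0.0792 points (SE 1.16) in the Phd2 model and -0.130 points (SE 1.24) in the sFlk1 model, and errors of that size leave room for differences of more than 1 point in either direction. The next bin, of rank 70, had 9.18%, 7.46%, 7.31% and 6.49% in Phd2+/- tumours, against 6.32%, 7.17% and 6.42% in Phd2+/+ tumours. It had 5.27%, 4.78% and 5.46% in sFlk1 tumours, against 8.38%, 9.14% and 7.38% in empty vector tumours. Its groups overlapped in the Phd2 model and not in the sFlk1 model, where the difference was -3.13 points (SE 1.04, adjusted p 0.455 in limma).

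The difference between the models was tested itself, as the Phd2 difference minus the sFlk1 difference. Averaged over the 300 bins it was 2.66 points. None of the 300 bins passed the adjusted threshold of limma (lowest adjusted p 0.0777), against 0% of all. At an unadjusted p under 0.05, 130 (43.3%) were above 0 and 0 below, against 14.6% and 0.777% of all ranked bins. Over both directions the share was 38.3% in ranks 301 to 600 and 15.3% of all ranked bins. Without Phd2+/+ tumour 2 the unadjusted count in the 300 bins was 85, and the share over all ranked bins was not counted. The smallest p belonged to the bins of Atp2c2 with Usp10 and Cotl1 (5.78 points), Agap1 (5.70), Ldlrad4 with Cep192 (5.92), Arfip1 (5.94) and Ptk2, the gene of focal adhesion kinase (5.42). Atp2c2, a Golgi calcium pump gene, had 8.77%, 8.37%, 6.85% and 7.79% in Phd2+/- tumours, against 5.37%, 3.94% and 6.36% in Phd2+/+ tumours. It had 3.93%, 3.79% and 4.99% in sFlk1 tumours, against 6.62%, 9.09% and 6.17% in empty vector tumours, with no overlap in either model.

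The second Auts2 bin had a difference between models of 6.83 points (SE 1.74, adjusted p 0.0777 in limma). At the other end, Chsy1 (-1.42 points), Pard3 (-1.39), Vps13d (-1.14), the Pdhx and Cd44 bin (-0.639) and Ghr (-0.555) had the smallest p among bins below 0. On the scale of log2(percent + 0.5), 7 of the 300 bins passed the adjusted threshold, against 0.259% of all, each with an adjusted p of 0.0485 in limma. On the arcsine scale 7 of the 300 passed, against 0.302%, at 0.0483. On both scales these were the bins of Agap1, Arfip1, Auts2 (rank 10), Atp2c2, Ptk2, Garem1 and Ldlrad4 (rank 117), all above 0. Whether a bin passed therefore depended on the scale.

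The counts were smaller once the level of the whole tumour was scaled out. When each tumour's percentages were divided by its median over ranked bins and put back on the common scale, the unadjusted Phd2 count was 16 bins higher and 2 lower in Phd2+/- tumours, against 1.94% and 1.96% of all. The Phd2+/- mean was then above the Phd2+/+ mean in 209 (69.7%) and below it in 91, against 49.8% and 50.2% of all. In the sFlk1 model 17 bins were lower and 8 higher in sFlk1 tumours, against 2.88% and 4.51%, and the sFlk1 mean was the lower one in 178 (59.3%), against 47.1%. The difference between models had 21 bins above 0 and 3 below, against 2.73% and 3.54%, and by sign alone 202 (67.3%) were above 0, against 46.9%. After scaling, the differences over the 300 bins were 0.448 points in the Phd2 model and -0.259 points in the sFlk1 model.

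The bin of every listed gene among the 300 had a higher mean in Phd2+/- than in Phd2+/+ tumours. So did 98.7% of the 300 and 80.3% of all ranked bins. All but those of Dnmt3a, Smad3 and Ncoa3 had a lower mean in sFlk1 than in empty vector tumours, against 80.3% of the 300 and 62% of all ranked bins. These directions are therefore not particular to the listed genes. Nfia had 10.5 ± 2.29% in Phd2+/- and 7.32 ± 1.74% in Phd2+/+ tumours (SD, n = 4 and 3), and 6.50 ± 0.621% in sFlk1 and 8.99 ± 3.14% in empty vector tumours (SD, n = 3 each). Gab1 had 7.34 ± 0.243% in Phd2+/- and 5.86 ± 0.577% in Phd2+/+ tumours, and 5.69 ± 0.250% in sFlk1 and 7.06 ± 0.990% in empty vector tumours, with the same n as all values below. The bin of Stat5a overlaps 11 coding genes, among them Stat5b, Atp6v0a1 and Stat3. It had 7.60 ± 1.35% in Phd2+/- and 5.87 ± 0.959% in Phd2+/+ tumours, and 5.24 ± 0.721% in sFlk1 and 7.09 ± 1.02% in empty vector tumours. All 3 of these bins thus had the directions of the average.

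The bin of Dnmt3a, which methylates unmodified DNA, is shared with Dtnb, which fills more of it. It had 8.00 ± 1.61% in Phd2+/- and 5.81 ± 0.730% in Phd2+/+ tumours, but 6.20 ± 0.654% in sFlk1 and 5.86 ± 0.926% in empty vector tumours. Smad3 likewise had 7.28 ± 1.53% in Phd2+/- and 4.66 ± 1.20% in Phd2+/+ tumours, and 6.40 ± 1.98% in sFlk1 and 5.69 ± 0.904% in empty vector tumours. The bin of Gadd45a, a short gene of the DNA damage response, is shared with Gng12, which fills more of it. It had 7.79 ± 1.15% in Phd2+/- and 7.67 ± 0.903% in Phd2+/+ tumours, and 6.02 ± 0.952% in sFlk1 and 7.55 ± 1.26% in empty vector tumours. The bin shared by Elf5 and Ehf had 7.67 ± 0.457% in Phd2+/- and 6.94 ± 0.317% in Phd2+/+ tumours, and 6.99 ± 1.67% in sFlk1 and 7.91 ± 0.336% in empty vector tumours. None of these genes' bins passed limma's adjusted threshold in any of the 3 comparisons.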

How the data were processed

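The authors deposited 1 table of 5hmC in percent, with 1 column per tumour. Per the submitters' processing notes, Bismark 0.13.1 and mm9 were named, with no role given. The pooling of calls within a bin, any minimum of coverage and the conversion rates were not given in the sources used here. The last bin of chromosome 1 ended at 195471971, the GRCm38 length, so coordinates are GRCm38, and genes came from RefSeq on GRCm38.p6. A gene belongs to the bin that holds most of its body. Per the labels' protocols, DNA was extracted with 200 µM DFO, an iron chelator.

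Groups and replicate numbers were taken from the sample titles. The percentages of each bin went into limma 3.58.1 (R 4.3.3), with a trend, all 13 tumours in 1 fit of 4 group means and Benjamini-Hochberg adjustment over 6947 bins. The rest was computed in Python 3.11.15. This model takes values to be near normal with 1 spread for all groups. Nothing in the labels beyond 1 mouse per title speaks of litters or batches.

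On simulated data with 200 of 6947 bins raised by 2 points, 39% were recovered in the Phd2 design and 26% in the sFlk1 design. With 4 points these were 90% and 88.5%, and 0 bins were called with no change. With 2 points, 3 of 81 and 2 of 54 calls were false, and with 4 points 6 of 186 and 14 of 191. The raised bins were drawn at random from all ranked bins, with noise independent between bins. Over all ranked bins the median SE of the Phd2 difference was 0.641 points, against 0.977 in the 300. The recovered shares therefore do not apply to the 300 bins, where the spread was larger.

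The members and lists were chosen with earlier results of these data known. Named were the 20 highest bins, runs of 4 or more, for every comparison and direction the 5 bins of smallest p, the 3 bins on either side of the bound, and list genes in the 300 bins. Of 208 list genes, 204 matched on chromosomes 1 to 19, and the other 4 are on X. Alternatives were other choices of bins, log2, arcsine and scaled percentages, no trend, bins with zeros, the 2 groups alone, the replicate number as a block, and each tumour left out. The result of 1 list is not reported here.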

Additional observations from a re-analysis of the deposited data

Results flagged for a closer look

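The 4 Phd2+/- tumours were checked in 49 values, those of the named bins and the averages, for a tumour far from the others, and 5 of the values were past the 95% critical value of Dixon's test for 4 values, where chance flags about 1 in 20. The gap as a share of the range was 0.852 for Tcf7l2 (10.1%, 9.98%, 8.84% and 9.88% in Phd2+/- tumours 1 to 4), with tumour 3 low. It was 0.848 for Ldlrad4 with Cep192 (8.63%, 9.10%, 6.02% and 9.07%), with tumour 3 low again. It was 0.845 for Vps13d with Dhrs3 (9.21%, 5.74%, 5.66% and 5.10%), with tumour 1 high. It was 0.859 for Sgk1 (6.20%, 9.10%, 5.97% and 5.72%), with tumour 2 high. It was 0.891 for Ghr with Ccdc152 (6.78%, 6.05%, 6.75% and 6.84%), with tumour 2 low.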

How the results depend on the processing

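The differences over the 300 bins kept their direction under every alternative run. Scaling, chosen after seeing the data, moved them most: by the tumour median they were 0.448 points (6.77%) in the Phd2 model, -0.259 points (-3.92%) in the sFlk1 model and 0.707 points between models, and by the tumour mean 0.356 points (5.35%), -0.321 points (-4.82%) and 0.677 points. Leaving out each tumour gave 1.44 to 1.98 points (22.9% to 33.7%) in the Phd2 model, -1.05 to -0.636 points (-15.5% to -9.69%) in the sFlk1 model and 2.33 to 2.87 points between models. It gave 0 adjusted limma calls among the 300 in the Phd2 and sFlk1 comparisons and 0 to 1 between models. The 1 was Arfip1 without Phd2+/- tumour 4, in a fit that called 6 of all 6947 bins. Unadjusted counts in the 300 were then 48 to 124, 23 to 43 and 85 to 132, and the shares over all ranked bins were not counted. Between models 7 bins passed on the log2 scale and 7 on the arcsine scale, against 18 and 21 of all 6947 bins. With 150 bins kept, 21.3% had a neighbour among those kept; with 600 bins 38.8% did, and the median number of genes per bin was 3 in place of 2. The cause of these changes was not tested, except that keeping more bins makes neighbours more frequent. Replicate numbers showed no sign of pairing the tumours. The correlation of same-numbered tumours' deviations from their group means was -0.0908 to -0.00488 over 6 pairs. Of 6 control tumours, 0 correlated best with their own number. With so few tumours per group and unknown depth, this check cannot exclude a pairing. With the number as a replicate block the differences were 1.93, -0.887 and 2.82 points, with 0 adjusted calls in all 3 comparisons. Choosing bins by median shared 267 of 300. Depth is unknown, so how much of the spread between tumours is counting error cannot be given.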

Other observations

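The requirement of a value above 0 in all 13 tumours left out 2 autosomal bins whose mean reached the level of the 300. Both were the short last bin of a chromosome and held no gene of the annotation used. The bin at chr14:124800001-124902244 had a mean of 14.1% with 2 zeros, and its values ran up to 33.3%, in empty vector tumour 1. The bin at chr16:98100001-98207768 had a mean of 6.43% with 3 zeros, up to 19.2% in Phd2+/+ tumour 1. On the X chromosome no bin above 0 in all tumours reached that level, and the highest mean among 391 such bins was 4.48%.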
